A study of Mus musculus with 2 samples.

Results

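The 10 genes of the serine/arginine-rich (SR) splicing factor family described here are Srsf1, Srsf2, Srsf3, Srsf4, Srsf5, Srsf6, Srsf7, Srsf9, Srsf10 and Srsf11. They were matched by symbol through the GENCODE M21 mouse annotation to the gene identifiers of the deposited tables, and are 10 of 43346 genes, with 67 listed transcripts. RNA longer than 200 nucleotides with a poly(A) tail was sequenced as stranded read pairs from liver of C57BL/6J embryos at gestational day 14, pooled from male and female littermates. There was 1 group of 2 libraries, biological replicates 1 and 2, with 100477392 and 154601605 expected counts. Both libraries name the same donor entry, and nothing shows that the pools were separate litters, so the spread given below may be technical. Levels are in TPM, a relative transcript abundance scaled for transcript length and library size, and are given for replicate 1 and then replicate 2, or as mean ± SD with n = 2.

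SR proteins join an RNA recognition motif to a domain rich in arginine and serine. They bind exons and help the spliceosome to choose splice sites, and their activity and location are set by phosphorylation through the SRPK and CLK kinases. Several SR genes are known to limit their own output by splicing part of their RNA into forms with an early stop codon, which the nonsense-mediated decay pathway degrades, or by keeping introns that hold the RNA in the nucleus.

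Stop codons of the coding and decay forms are shown first, since the annotation sorts transcripts into these classes by where reading ends. Each run below is 30 bases of transcript, 5′ to 3′, from the GENCODE M21 transcripts on GRCm38, with 27 coding bases in lower case and the stop codon in capitals. For Srsf3, the stop of the coding form lies in the last exon at chr17:29041409-29041411 (plus strand), and that of the decay form lies in an internal exon of 456 bases at chr17:29039485-29039487, which is 548 bases before the last exon junction.
Srsf3-202 (coding): agccgatctaggtcaaatgaaaggaaaTAG
Srsf3-201 (decay): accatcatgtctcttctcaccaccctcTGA
For Srsf6, the coding stop was at chr2:162934755-162934757 (plus strand). The decay form ends within an exon of 268 bases at chr2:162932964-162932966, 534 bases before the last junction, and the short transcript Srsf6-202, annotated as coding, ends at the same stop.
Srsf6-203 (coding): tcaaggtccagatcaagttccagagatTAA
Srsf6-201 (decay): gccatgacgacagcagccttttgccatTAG
For Srsf2, the coding and decay forms share 1 stop at chr11:116852028-116852030 (minus strand). It lies 7 bases before the last junction in Srsf2-201 and 113 bases before it in Srsf2-204, so here the forms differ in splicing after the stop.
Srsf2-201 and Srsf2-204: ccagaagaagagggagcagtttcttccTAA
For Srsf7, the deposited tables list the coding form alone, with its stop at chr17:80201548-80201550 (minus strand). GENCODE M21 adds a decay form, Srsf7-203, with a stop in an exon of 460 bases at chr17:80205054-80205056, 699 bases before the last junction.
Srsf7-201 (coding): agaagtgcaagtccagaaagaatggacTGA
Srsf7-203 (decay, not in the tables): aggtttcttcgtttgagtcagtcgcctTGA

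All 10 genes were expressed in both libraries. Srsf2, also known as SC35, was at 299 and 321 TPM (310.0 ± 15.4; chromosome 11, 116849901 to 116853094). Srsf5, an SR protein with a pair of RNA recognition motifs, was at 290.1 and 318 TPM (mean 304; chromosome 12, 80945504 to 80950507). The values of Srsf2 and Srsf5 overlapped, and those of the other 8 genes lay below both. They ranked 195 and 200 among 21474 protein-coding genes by mean TPM.

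Srsf3, the smallest SR protein, had 155 and 161 TPM (158 ± 3.97; chromosome 17, 29032628 to 29043373). Srsf1, the founding member known as SF2/ASF, had 146 and 169.9 TPM (158 ± 16.9; chromosome 11, 88047373 to 88053755), a range that spans that of Srsf3. Srsf6 (110.3 and 119 TPM, 115 ± 6.35; chromosome 2, 162931528 to 162937121) and Srsf11, an SR-related factor also called p54 (120.2 and 105 TPM, 113 ± 10.7; chromosome 3, 158010473 to 158036639), overlapped in the same way. Srsf11 was the 1 member with a clearly lower TPM in replicate 2.

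The remaining genes were lower. Srsf7, whose protein carries a zinc knuckle besides the RNA recognition motif, had 70.2 TPM in each library (chromosome 17, 80200080 to 80207307). Srsf10, which acts as a splicing repressor when dephosphorylated, had 46.3 and 53.4 TPM (49.9 ± 5.01; chromosome 4, 135855747 to 135869908), and overlapped Srsf9 at 45.2 and 47.9 TPM (46.5 ± 1.86; chromosome 5, 115327177 to 115333080). Srsf4 was lowest at 43.2 and 45.1 TPM (44.2 ± 1.32; chromosome 4, 131873617 to 131901706), just under both values of Srsf9. Member genes thus spanned 44.2 to 310.0 TPM with a median of 114, beside a median of 16.6 TPM over the 7140 protein-coding genes that reached 5 TPM in each library.

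**Figure D1:**
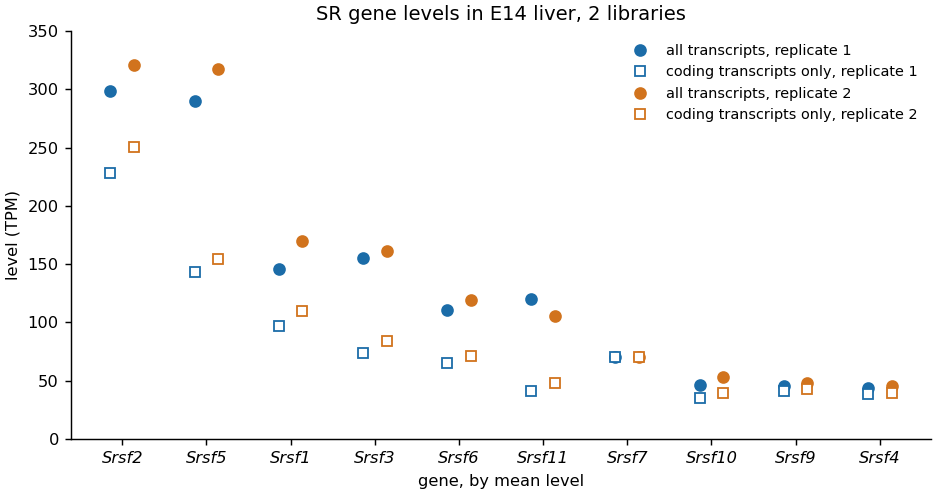
Level of each SR gene in TPM (vertical axis) for the 2 libraries, genes ordered by mean level; filled circles are all transcripts of the gene and open squares its coding transcripts, and for Srsf7, with 1 listed transcript, they coincide. Srsf2 and Srsf5 lie between 290.1 and 321 TPM, and the squares fall farthest below the circles for Srsf5, Srsf3, Srsf2 and Srsf11.

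The genes differed in how much of their TPM sat on coding transcripts. Summed over the family, coding transcripts held 832 and 909 TPM, or 63.6 ± 1.17% of the total of 1368 ± 60.1 TPM. Retained-intron transcripts held 18.8 ± 0.213%, transcripts annotated for nonsense-mediated decay 10.3 ± 1.21%, and other non-coding transcripts 7.36 ± 0.253%. The 25 coding transcripts had a median length of 1899 bases, against 1562 for the 18 retained-intron, 874 for the 12 decay and 530.0 for the 12 other transcripts. TPM divides by length, and as shares of expected counts the same classes held 73.0 ± 0.652%, 19.1 ± 0.184%, 6.09 ± 0.866% and 1.73 ± 0.0302%. Transcript values are estimates that split reads shared between transcripts, so they carry no test here.

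By TPM, Srsf3 had the largest decay share of the family. Its decay form Srsf3-201 stood at 53.8 and 45.0 TPM, or 31.3 ± 4.76% of the gene's TPM. The coding form Srsf3-202 stood at 73.5 and 84.0 TPM, or 49.8 ± 3.44%. Replicate 1 thus had more of the decay form and replicate 2 more of the coding form. Its leading retained-intron form, Srsf3-204, which keeps introns of 2150 and 393 bases, had 19.2 and 17.9 TPM.

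Srsf6 came next in decay share by TPM. By expected counts the decay shares were 24.3% for Srsf3 and 9.94% for Srsf6, and by mm9 transcript RPKM the order turned, with 22.9% for Srsf3 and 47.0% for Srsf6. Srsf6-201 had 22.8 and 21.3 TPM (19.3 ± 1.97%) and the retained-intron form Srsf6-204 22.6 and 26.7 TPM (21.4 ± 1.34%), beside 64.6 and 71.1 TPM for coding Srsf6-203. For Srsf2, the decay form Srsf2-204 held 41.0 and 34.8 TPM and the retained-intron form Srsf2-203 28.2 and 32.1 TPM, while coding Srsf2-201 held 225 and 248 TPM (76.2 ± 1.29%). Decay forms of Srsf3, Srsf2 and Srsf6 were each lower in replicate 2 while the coding forms were each higher in it. These are unscaled TPM, in which the median gene has a log2 ratio of 0.15 toward replicate 2. The highest decay forms of Srsf4 (2.95 and 3.45 TPM), Srsf5 (0.130 and 0.340 TPM) and Srsf11 (4.47 and 4.48 TPM) were not lower in replicate 2. That of Srsf1 was nearly level (17.9 and 17.8 TPM).

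Srsf1 had 66.3 and 64.7% of its TPM on coding transcripts, led by Srsf1-205 at 39.9 and 44.6 TPM. Its annotated retained-intron form Srsf1-203 had 27.9 and 38.5 TPM, and its decay form Srsf1-204 had 17.9 and 17.8 TPM. Both are short, at 759 and 896 bases against 5362 for Srsf1-205, and by expected counts 91.6% of Srsf1 was coding. The 378-base intron that Srsf1-203 keeps lies within the last exon of coding Srsf1-205, so that stretch is not particular to Srsf1-203. In the mm9 junction list, an intron of that length had 10 and 26 reads. One of 761 bases, the length in Srsf1-204, had 16 and 14. The 196-base intron of coding Srsf1-205 had 3073 and 5499 reads, and the 881-base intron found in Srsf1-203 and Srsf1-204 had 703 and 1157. Srsf4 was 87.8 and 86.7% coding through Srsf4-202 (38.0 and 39.1 TPM), with its highest decay form, Srsf4-204, at 2.95 and 3.45 TPM. Its annotated retained-intron form, Srsf4-201, for which no kept intron was identified, was at 1.24 and 1.49 TPM.

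Srsf5 had little TPM on its annotated decay form but much on retained-intron and other non-coding transcripts. Whether any of those other transcripts are decay targets was not tested. By TPM, retained-intron transcripts held 23.0 and 24.3% of Srsf5 and other non-coding transcripts 27.5 and 27.2%. Its decay form Srsf5-208 had 0.130 and 0.340 TPM. The retained-intron form Srsf5-212, which keeps a coding intron of 1229 bases (chromosome 12, 80947866 to 80949094), had 61.9 and 72.7 TPM (22.1 ± 1.06%), second to coding Srsf5-201 at 110.4 and 118 TPM. By expected counts 46.9% of Srsf5 was coding, 44.2% retained intron and 8.87% other non-coding. In the mm9 junction list, 26 and 60 reads crossed a 1229-base intron of Srsf5, against 513 and 881 for the 325-base intron after it and 2889 and 3806 for an upstream intron of 114 bases. More reads, 126 and 322, joined the same donor to a nearer acceptor over an intron of 263 bases, the length of an intron in Srsf5-206. Exons of 338 and 427 bases, in neither the mm9 exon table nor any GENCODE M21 transcript by length, were built from that acceptor. Their inclusion came to 73.3 and 74.7% and to 73.5 and 74.1%, but both exons count the same 126 and 322 upstream reads. Downstream reads were 17 and 32 for the first and 18 and 21 for the second, so these values depend on the flank counted and cannot be added. Exons over 500 bases were not built, and a further junction in this stretch, over an intron of 432 bases, had 61 and 106 reads. The count over the 1229-base intron is thus not a measure of retention alone.

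Srsf11 had the lowest coding share, 34.4 and 45.4%. Coding Srsf11-202 had 25.3 and 27.8 TPM and decay form Srsf11-206 4.47 and 4.48 TPM. Its 7 transcripts annotated as retained-intron together held 72.9 and 51.0 TPM (54.6 ± 8.59%). They were led by Srsf11-203 at 22.3 and 22.9 TPM, for which no kept intron was identified. Nearly all of the gap between the libraries lay in 1 of the 7, Srsf11-211, a transcript of 521 bases from the 3′ end, with 23.7 TPM in replicate 1 against 2.08 in replicate 2. The deposited intervals for that estimate, whose level is not given in the sources used here, were 20.5 to 26.8 and 1.25 to 3.13 TPM. Srsf11-211 was not named by the rule for transcripts and was chosen after its values were seen.

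Srsf7, Srsf9 and Srsf10 had no decay or retained-intron transcript in the tables. Srsf9 was 91.4 and 88.7% coding through Srsf9-201 (41.3 and 42.5 TPM), and Srsf10 was 75.5 and 73.8% coding, led by Srsf10-204 (16.9 and 18.5 TPM), with the rest on transcripts annotated as processed without a reading frame. All TPM of Srsf7 is coding because Srsf7-201 is the single transcript listed for it. GENCODE M21 lists 7 further Srsf7 transcripts, of which 3 keep introns and 1 is a decay form, and 1 further decay form each for Srsf3 and Srsf9. These were not quantified in the tables.

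**Figure D2:**
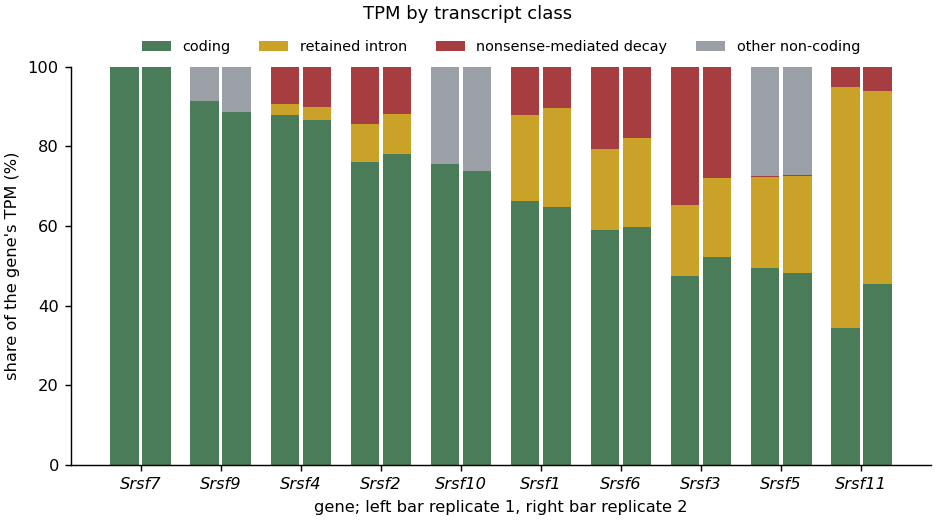
Share of each SR gene's TPM (vertical axis, percent) by transcript class, with replicate 1 as the left bar and replicate 2 as the right bar of each pair, genes ordered by mean coding share. Srsf7 is coding throughout, with its 1 listed transcript, and the annotated decay share is largest in Srsf3. The pair of bars differs most for Srsf11, at 34.4 and 45.4% coding.

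Coding shares were set beside those of other genes that have a listed alternative, as a description with no test. Of the 7 members with a retained-intron or decay transcript, 3 had under 50% of their TPM on coding transcripts as a mean of the libraries, namely Srsf3, Srsf5 and Srsf11, where 13.4% of 3620 protein-coding genes with such a transcript and at least 5 TPM did. The median coding share was 59.3% for the 7 members and 85.8% for the 3620 genes. Median retained-intron shares were 21.4 and 7.01%, and median decay shares 11.3 and 0%. The 11.3% is the decay share of Srsf1, which was 3.24% by expected counts and had few reads on the 761-base junction. Srsf3 (49.8%) and Srsf5 (48.9%) lay just inside the 50% bound, and the nearest member above it was Srsf6 (59.3%). By expected counts only Srsf5 stayed under it, and with replicate 2 alone Srsf5 and Srsf11 did.

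Junction reads gave a measure of single exons. The deposited junction list is on mm9 and holds 2 read sets, R1 and R2, which are not tied to the replicate labels, so they keep those names here and are given in that order. Inclusion is the mean of the reads over the flanking junctions, as a percentage of that mean plus the reads that skip the exon, with exact Clopper-Pearson 95% intervals that cover counting error only. Among 32 member exons with both kinds of junction and at least 20 reads in each read set, 18 exons in 8 genes had a pooled inclusion between 1 and 99%. That range was chosen after the data were seen, and overlapping exons that share junctions are counted apart.

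The exon of 456 bases in Srsf3, equal in length to the exon with the early stop, was included at 84.8% (79.6 to 89.1) in R1 and 69.2% (64.4 to 73.8) in R2. It was the 1 member exon of 32 whose inclusion differed between the read sets (Fisher's exact test, two-sided, adjusted p = 0.0102 over all exons), beside 0.173% of 25408 exons of all genes. Upstream junction reads were 330 and 428, downstream reads 72 and 111, and skipping reads 36 and 120. All of these are few beside the 1497 and 2602 reads over the last intron of the gene, and the unequal flanks make the inclusion value depend on which side is counted. As means of the read sets, the upstream and downstream junctions alone gave 84.1 and 57.4%. The junction value is above the 34.7 and 28.0% of TPM that the tables place on Srsf3-201, but the measures have unlike denominators. Those TPM shares are of the whole gene, retained-intron forms included, while inclusion counts only junction reads that include or skip the exon.

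The exon of 268 bases in Srsf6, equal in length to the exon with the early stop of Srsf6-201, was included at 12.5% (11.0 to 14.2) in R1 and 12.4% (11.2 to 13.7) in R2. A shorter version of 165 bases with the same upstream junction stood at 4.16 and 4.52%. In Srsf2, an exon of 104 bases, found by length in the decay form Srsf2-202 and in the coding form Srsf2-206, was included at 2.75% (2.25 to 3.34) and 3.01% (2.60 to 3.48). Read sets overlapped in their intervals for each of these exons. The 104-base exon is not part of Srsf2-204, the highest decay form of Srsf2. A 502-base intron after the stop is found by length in Srsf2-202, Srsf2-203, Srsf2-204, Srsf2-205 and Srsf2-206, but not in Srsf2-201. It had 1190 and 1587 reads, beside 3530 and 5825 over the 1059-base intron of Srsf2-201 and Srsf2-204.

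Srsf7 had an exon of 460 bases that the mm9 exon table does not hold but that is equal in length to the early-stop exon of Srsf7-203 shown above. It was joined by 195 and 212 reads upstream and 67 and 112 downstream, against 2244 and 3036 that skip it, so its inclusion was 5.52% (4.63 to 6.51) and 5.07% (4.33 to 5.88). A coding exon of 36 bases in Srsf7 was included at 88.0% (86.6 to 89.3) and 86.9% (85.8 to 88.0).

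In Srsf11, an exon of 117 bases found in the decay forms Srsf11-206 and Srsf11-212 was included at 12.2% (10.2 to 14.4) and 10.1% (8.70 to 11.6). An exon of 109 bases next to it, which holds the early stop of Srsf11-206, was included at 2.42 and 3.53%. Values of these exons also depend on the flank counted. As means of the read sets, the upstream and downstream junctions alone gave 4.02 and 17.2% for the 117-base exon and 5.34 and 0.494% for the 109-base exon. For the exons of 268 bases in Srsf6 and 104 bases in Srsf2 they gave 7.39 and 17.0% and 1.80 and 3.94%. A further Srsf11 exon of 112 bases, in neither the mm9 exon table nor any GENCODE M21 transcript by its length, stood at 6.38% (4.87 to 8.31) and 5.76% (4.55 to 7.18). Alternative exons of Srsf9, of 90 and 79 bases, were included at 1.47 and 1.23% and at 1.28 and 1.17%, and had 0.325 and 0.0631% from the upstream junction alone against 2.36% each from the downstream one. Srsf4 had 4 alternative exons, each found by length in its decay forms alone. Exons of 207 and 198 bases, both of Srsf4-203, were included at 96.6 and 96.8% and at 96.5 and 90.7%, against 2 and 3 and 4 and 17 skipping reads. An exon of 174 bases of Srsf4-204, whose 3′ end is that of the 198-base exon, stood at 21.3% (17.8 to 25.1) and 20.7% (18.0 to 23.7). The fourth, of 184 bases, stood at 0.732 and 1.56%, a value that counts only junctions that share an end with the skipping junction. Other annotated junctions of that exon had 44 and 88 reads at one end and 49 and 72 at the other. Upstream and downstream junctions alone gave 38.0 and 96.6% for the 198-base exon, 0.281 and 34.6% for the 174-base exon and 0.481 and 1.80% for the 184-base exon. Since the skipping junctions differ between these exons, their values are not shares of the whole gene. The 17336-base junction of coding Srsf4-202 had 407 and 630 reads, against 70 and 94 from the same donor to the 207-base exon.

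**Figure D3:**
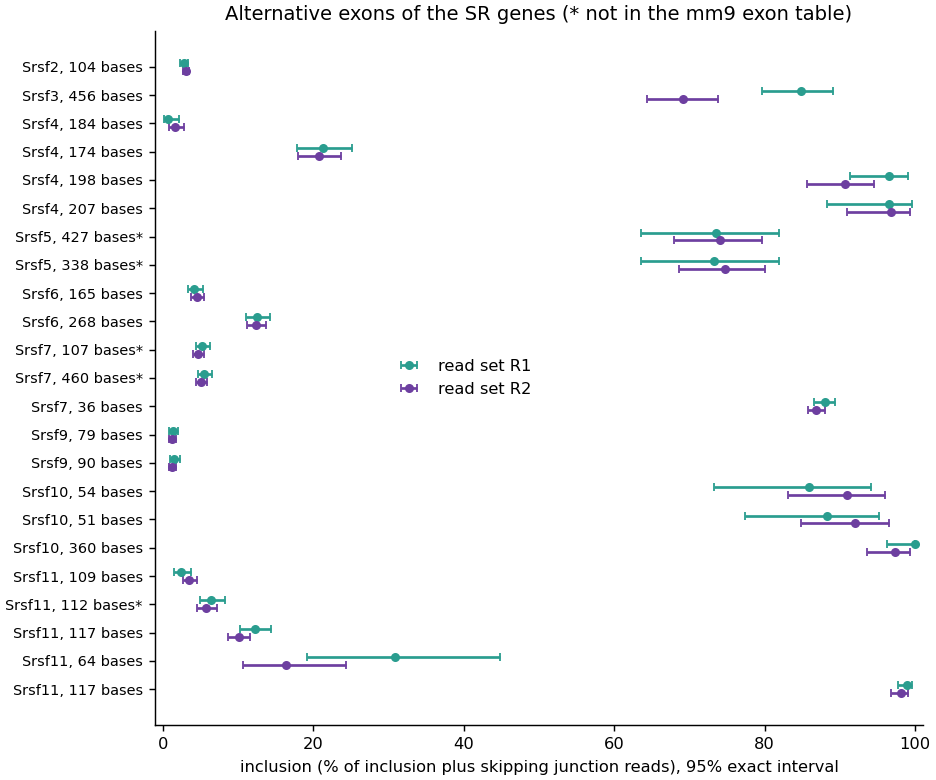
Inclusion of each alternative SR gene exon (horizontal axis, percent of inclusion plus skipping reads) in read sets R1 and R2, with exact 95% intervals; exons are labelled by gene and length, and starred exons were built from junctions alone. Intervals of the 2 read sets are apart for the Srsf3 exon of 456 bases, at 84.8 and 69.2%, and early-stop exons of Srsf6 and Srsf7 lie at 12.5 and 5.52% in R1.

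Several members used splice sites a few bases apart. The runs below are the first 30 bases of the exon from GENCODE M21 on GRCm38 where acceptors differ by 3 bases, with the bases in capitals present only when the first acceptor is used. In all 3 genes those bases are the same letters.
Srsf5 acceptor: CAGgtcaagaagcaggtcacgatctcggac
Srsf10 acceptor: CAGtagaccgactggaagaccacggcgtag
Srsf11 acceptor: CAGgtgactcgggattatgatgaagaggag
The first acceptor took 16.9% (15.7 to 18.2) and 17.7% (16.6 to 18.8) of the pair's junction reads in Srsf5 (exon at chr12:80949717-80950503, plus strand). It took 89.4% (88.3 to 90.4) and 90.3% (89.2 to 91.4) in Srsf11 (exon at chr3:158011869-158012203, minus strand), where the second site is not marked as annotated. In Srsf10 (exon at chr4:135863523-135863576, plus strand) it took 37.3% (27.0 to 48.7) in R1 and 42.1% (33.9 to 50.8) in R2. For Srsf5 the transcript tables placed 15.0 and 14.6% of the pair's TPM on the first acceptor, close to the junction value. For Srsf10 they placed 76.5 and 74.2% on it, well above the junction value, which rests on 31 against 52 and 59 against 81 reads.

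Srsf7 used donors 9 bases apart after the same exon. The run below ends at the exon's 3′ end (exon at chr17:80204122-80204232, minus strand), with the bases in capitals kept only by the outer donor.
Srsf7 donor: tggttctataataggatcgagGTATTTCCA
The outer donor, used by the 1 transcript in the tables, had 1087 and 1553 reads. The inner donor, which is not marked as annotated in the mm9 list but has the intron length of Srsf7-208 and 2 other M21 transcripts, had 1802 and 2810. A further donor of the same exon, 24 bases farther in than the inner one, had 345 and 463 reads, and another had 19 and 35. The inner donor thus took the larger part of reads in both read sets. Of the reads of the inner and outer donors alone, the outer donor took 37.6% (35.9 to 39.4) and 35.6% (34.2 to 37.0). Over all its junctions with at least 20 reads, 6195 of 51644 Srsf7 reads (12.0%) fell on junctions not marked as annotated, the highest share among the members, against 9800 of 237337 (4.13%) for the family together. Srsf1 followed with 7.13%, mainly 577 and 899 reads over a 77-base intron whose length matches no intron of its M21 transcripts.

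Between the libraries the SR genes differed little. Ratios of replicate 2 over replicate 1, from expected counts scaled by edgeR's TMM method, ran from 0.908-fold for Srsf7 to 1.02-fold for the highest, and no member reached a log2 ratio of 1 in either direction. In an exact conditional binomial test on counts, two-sided with Benjamini-Hochberg adjustment at 0.05, 6 of 10 members differed, as did 40.4% of 18572 genes tested, so the share among 10 genes is near the background. Of the 6, 1 was higher in replicate 2 (20.5% of all genes) and 5 in replicate 1 (19.8%). The test compares 2 libraries and covers counting error alone. With library totals for scaling, 7 members differed, 5 of them higher in replicate 2. Over all genes tested, that scaling called 8406, with 5649 of them higher in replicate 2.

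Srsf7 had the ratio farthest from 1, at 17944 and 25951 expected counts and a log2 ratio of -0.14 (95% counting interval -0.17 to -0.11, adjusted p = 9.18e-22 in the exact test). Srsf3 followed with 42502 and 62963 counts and a log2 ratio of -0.10 (-0.12 to -0.09). Srsf9 (-0.10), Srsf4 (-0.08) and Srsf11 (-0.06) also differed, with replicate 1 higher, and Srsf1 (0.03) with replicate 2 higher. Srsf2, Srsf5, Srsf6 and Srsf10 were not called, with log2 ratios from -0.01 to 0.03. In unscaled TPM, where the median gene has a log2 ratio of 0.15, 8 of 10 members were higher in replicate 2, Srsf3, Srsf4 and Srsf9 among them. A negative binomial exact test with edgeR's common dispersion, equal to a coefficient of variation of 0.190, called 0 members at an adjusted p of 0.05 and 0 at an unadjusted p under 0.05, where the binomial test called 6. That dispersion was estimated from these same libraries taken as a single group, so the difference under test sets its own error. The result is therefore not an independent check.

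**Figure D4:**
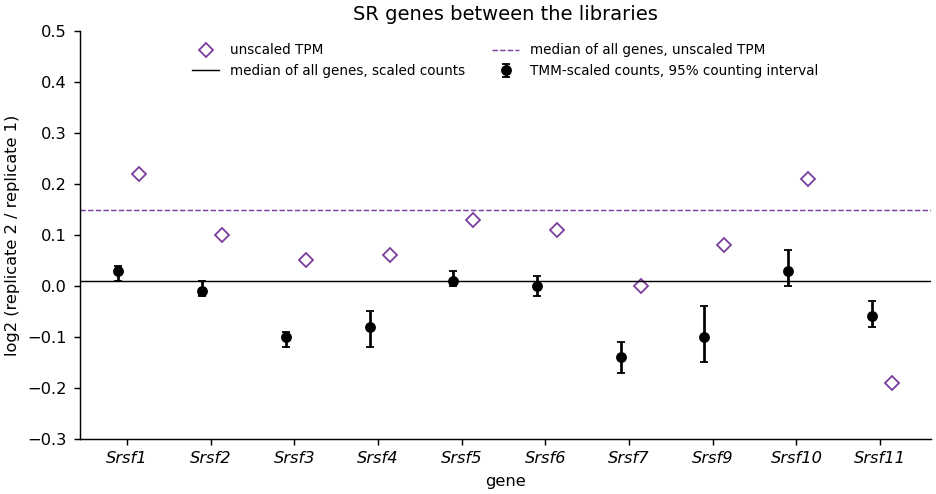
Log2 ratio of replicate 2 over replicate 1 (vertical axis) for each SR gene, from TMM-scaled counts with 95% counting intervals (filled circles) and from unscaled TPM (open diamonds); lines are the medians of all genes with at least 100 counts, 0.01 and 0.15. Circles run from -0.14 for Srsf7 to 0.03, and Srsf11 is the 1 gene whose diamond lies below its circle.

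Srsf11 stood apart in that its TPM ratio (-0.19 on the log2 scale) lay below its scaled count ratio (-0.06), where for the other 9 genes it lay above. The transcript behind the lower TPM, Srsf11-211, has 895 and 112 expected counts of 24153 and 37019 for the gene. Junction reads along Srsf11 also shifted. Set R1 gave 33.0% (30.9 to 35.2) of reads at its first junction and 52.6% (51.2 to 53.9) at its last. There, 2881 and 2599 reads crossed an intron of 106 bases. That length is found in Srsf11-211 but also in Srsf11-201, Srsf11-202, Srsf11-204, Srsf11-207 and Srsf11-213, so the junction does not single out Srsf11-211. The median over 91406 annotated junctions with at least 100 reads was 37.9%, the 5th to 95th percentiles were 30.1 to 45.8%, and 0.843% of them had an R1 share as high as that of this junction. In Srsf7 the R1 share ran the other way, from 45.0% at the first junction to 40.3% at the last. Over 73 annotated member junctions with at least 100 reads, the median R1 share was 39.3%. Whether the junction shift and the transcript difference have a common source was not tested, since R1 and R2 are not tied to the replicates.

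**Figure D5:**
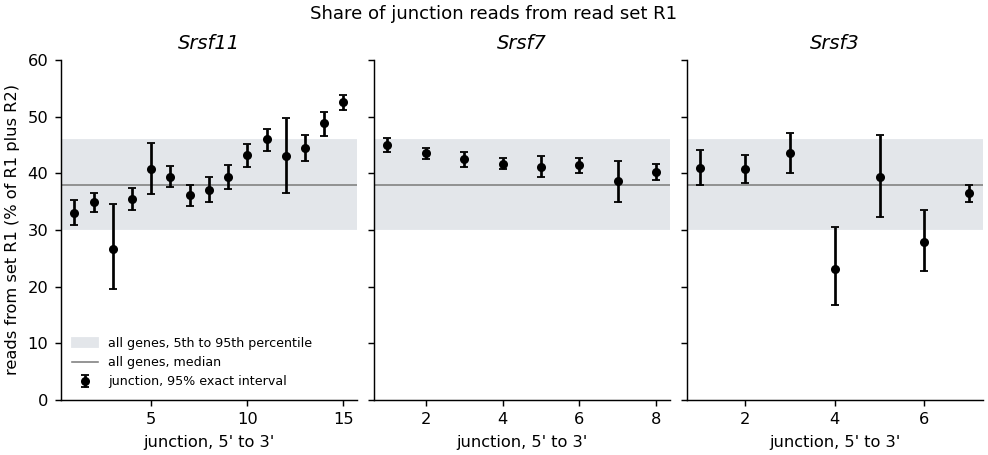
Share of junction reads from set R1 (vertical axis, percent) along Srsf11, Srsf7 and Srsf3, junctions ordered from 5′ to 3′ with exact 95% intervals; the band is the 5th to 95th percentile over all annotated junctions. Srsf11 leaves the band at its 3′ end, reaching 52.6%, and in Srsf3 the junction that skips the 456-base exon is lowest at 23.1%.

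Genes that act with the SR proteins were read from lists. Of 12 SR-related genes, the highest were Srrm2, a large nuclear speckle protein (97.0 and 120.5 TPM), Rnps1 (96.5 and 110.5 TPM) and the splicing activator Tra2b (66.6 and 72.3 TPM), and the lowest was Srsf12 (0.130 and 0.0900 TPM). In the exact test 6 were higher in replicate 2 and 4 in replicate 1, where 20.5 and 19.8% of all genes tested were. Their median level of 60.7 TPM was below the 114 TPM of the members. Only Srrm2 had a coding share under 50% (29.7%).

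Of 10 kinases and import factors of SR proteins, Clk1 (92.1 and 106 TPM), Clk3 (57.5 and 61.3 TPM) and Clk4 (51.3 and 54.7 TPM) were highest, and 3 were higher in replicate 2 and 5 in replicate 1 (20.5 and 19.8% of all genes). Clk1 (30.2% coding) and Clk2 (39.8%) lay under 50% coding, with 33.6 and 33.8% on retained-intron transcripts. Genes under 50% coding are named in each list, a choice made after their values were seen. Srpk3, a kinase of muscle, was lowest and the 1 listed splicing gene past a log2 ratio of 1, with 0.970 TPM in replicate 1 against 0.0300 in replicate 2 (-4.65 on the log2 scale, adjusted p = 1.13e-55 in the exact test).

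The hnRNP proteins, which often oppose SR proteins at splice sites, had a median of 96.0 TPM over 26 genes, led by Hnrnpa1 (553 and 533 TPM), Hnrnpa2b1 (436 and 457 TPM) and Hnrnpa3 (439 and 393 TPM), with Ptbp2 lowest (4.21 and 4.36 TPM). Of them 7 were higher in replicate 2 and 16 in replicate 1 (20.5 and 19.8% of all genes). Their median coding share was 98.8%, against 70.1% for the 10 members. A retained-intron or decay transcript is listed for 13 of the 26 hnRNP genes and 7 of the 10 members with at least 5 TPM, so the medians also reflect which transcripts are annotated. Hnrnph1 was the 1 hnRNP gene under 50% coding (49.1%). Of 15 splice site recognition genes, 4 were higher in replicate 2 and 8 in replicate 1 (20.5 and 19.8% of all genes). U2af1 (141 and 148 TPM), Snrnp70 (151 and 136 TPM) and U2af2 (117 and 121 TPM) were highest, Sf3b5 was lowest (18.0 and 19.2 TPM), and the median coding share was 99.1%. Of 15 genes of nonsense-mediated decay, 5 were higher in replicate 2 and 9 in replicate 1 (20.5 and 19.8% of all genes). Of the 7140 protein-coding genes that reached 5 TPM in each library, 3962 differed in either direction. Exon junction factors Magoh (102 and 98.0 TPM) and Eif4a3 (98.7 and 99.3 TPM) led, followed by Smg5 (30.3 and 34.2 TPM), and the nuclease gene Smg6 was lowest by the mean (5.05 and 5.60 TPM), with Smg1 at 4.96 and 5.98 TPM. Smg6 was also the 1 gene of its list under 50% coding (39.1%).

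The tissue label matched its markers: 5 fetal hepatocyte markers summed to 20956 and 23884 TPM and 5 erythroid markers to 203272 and 185315 TPM, with none at 0. The 6 skeletal muscle markers summed to 48.2 TPM in replicate 1 and 1.99 in replicate 2, all 6 higher in replicate 1, and their part in the differences of Srpk3 and of the members was not tested. In bulk tissue, fewer cells of a type and less RNA per cell cannot be told apart.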

How the data were processed

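Members and lists were chosen with earlier results of these data known, and no list is independent evidence. Expected counts were deposited by the authors as estimated fragments per gene and transcript on mm10 with GENCODE M4, per the sample notes. The software behind them was not given in the sources used here. TPM and FPKM values were made by the authors from them, and interval bounds of each TPM, a signal column, were deposited beside them. The mm9 junction reads were deposited as whole-number counts for 1024689 junctions, and a score of 0 to 1 deposited by the authors was read as an irreproducibility value. The deposited mm9 RPKM values serve as an alternative only. Positions on mm9 and GRCm38 were kept apart, and exons and introns of the builds were set side by side by gene and length alone.

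All 10 members and 67 member transcripts were matched by identifier to GENCODE M21, which gave classes and GRCm38 positions. The named transcripts are each member's highest, its highest retained-intron and its highest decay transcript, and each list is named by its 3 highest genes, its lowest, and any called gene whose log2 ratio is 1 or more in size. Expected counts were rounded, scaled by edgeR 4.0.16 TMM and compared between the libraries, for each gene, by an exact conditional binomial test (two-sided) over genes with at least 10 counts, adjusted by Benjamini-Hochberg at 0.05. Exons were compared by Fisher's exact test with at least 20 reads per read set. The binomial test was also run on counts simulated with counting error alone around the mean of these libraries. It called 94 of 100 genes set to a 2-fold change, all 100 set to a 4-fold change, and 9 of 18406 left as they were. Counting error is what the test assumes, so the simulation does not show its error rate under any further spread between the real libraries. Alternatives were DESeq2 1.42.0 size factors, library totals, other filters, a negative binomial exact test, FPKM, RPKM, count shares, posterior means, single flanking junctions and each library alone. Every junction marked as annotated in the list joined boundaries of mm9 exons. Computation used R 4.3.3, Python 3.11.15, scipy 1.17.1, numpy 2.4.6, pandas 2.3.3 and matplotlib 3.10.9.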

Additional observations from a re-analysis of the deposited data

How the results depend on the processing

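The median level of the members was 114 TPM, and 136 as FPKM, 36.4 as mm9 RPKM and 108 as a mean on the log2(TPM + 0.1) scale, which are other units or averages; with each library alone it was 112 to 115. The median coding share of 70.1% became 88.7% by expected counts and 44.0% by mm9 transcript RPKM, an older transcript set, and was 69.2 to 70.9% with each library alone. Members under 50% coding numbered 3, against 1 by expected counts, 6 by mm9 RPKM and 6 at a bound of 75%, and 2 to 3 with each library alone. The negative binomial exact test, whose dispersion came from the same libraries that it compared, called 469 genes and 0 members. Scaling by library totals turned the log2 ratio of Srsf2 to 0.04 and of Srsf6 to 0.05, and unscaled TPM turned those of Srsf2 (0.10), Srsf3 (0.05), Srsf4 (0.06), Srsf6 (0.11) and Srsf9 (0.08). The coding share moved by more than the spread of the libraries in 9 of 10 members by expected counts, and inclusion in 12 of 18 exons with the upstream junction alone. The count of genes called under other scalings and filters, 6866 to 8406, stayed within 1.5 times the 7497 given. No paired analysis was possible because there is 1 group. Transcript shares depend on short forms with few reads, and with 2 libraries no spread between litters is known.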
